A study of Arabidopsis thaliana with 8 samples.

Results

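The chloroplast genome of Arabidopsis thaliana was examined through the 70 rows, of 34759 in the deposited gene table, whose locus lies on the plastid chromosome (ChrC). Plastids keep a small circular genome from their cyanobacterial ancestor. It encodes core subunits of the photosystems, the cytochrome b6f complex, ATP synthase and the NDH complex, the large subunit of Rubisco, part of the plastid ribosome and a bacterial-type RNA polymerase, while most plastid proteins are encoded in the nucleus. The plastid genes are transcribed by that polymerase, which needs nuclear sigma factors, and by a phage-type polymerase encoded in the nucleus. Chloroplasts of green tissue hold many genome copies and much plastid RNA, and the plastids of roots hold far less.

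The study compared wild-type plants (wt) with clf-28, a mutant of CLF (CURLY LEAF), a histone methyltransferase of the Polycomb system. Both were in the Col-0 background and grew in long days at 22 °C. Roots and leaves came from plants 2 weeks old on MS plates, where leaves means the whole aerial part. Flowers and siliques came from plants 5 weeks old in soil, so organ, age and medium change together. Each of the 8 groups has 1 library, so no value carries a replicate error. Organ comparisons use 1 wt and 1 clf-28 library per organ as the pair of samples. Nothing states that these libraries came from separate cultures, and p-values measure only the spread between these 8. Values are FPKM, fragments scaled to transcript length and library size, as the authors deposited them. The depth of the libraries is unknown. Libraries were made with a TruSeq RNA version 2 kit. That kit normally selects polyadenylated RNA, which most plastid transcripts are not, so the values describe the plastid RNA that entered these libraries. The CLF row had root values of 17.2 (wt) and 7.84 (clf-28) FPKM and silique values of 6.53 and 15.1, so its gene-level value does not check the genotype labels.

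The table names plastid rows by locus codes, and 38 rows received a gene name by position from the RefSeq annotation of build TAIR10.1. Of these, 34 had the same start and end as a RefSeq gene, 3 held the only gene at their locus, and 1 spanned the adjoining genes psbD and psbC. A further 29 rows were placed in 6 long intervals in which Cufflinks joined neighbouring genes, and these keep their codes. Of them, the row of 10 codes from ATCG00320 is listed at positions 36704 to 36777, a locus that no other row shares. It was put in the interval that follows because it lists more codes than its locus holds genes. The remaining 3 rows are ATCG00970, ATCG01270 and a locus without a code. Strand was not stated for the counting, so overlapping genes on opposite strands cannot be told apart. The genes rbcL, accD, clpP, rpoB, psaA and ndhF lie in such intervals, and these rules match no row to them. The intervals also hold rows of a single code, such as ATCG00490, ATCG00500 and ATCG01010. Those rows have values, but position alone does not say which gene each one is. All 70 rows were accounted for. In 25 rows the value was 0 in all 8 libraries, and these include 17 of 17 tRNA rows, which are short. Another 10 rows were above 0 but under 1 FPKM in every library, and 35 reached 1 FPKM in at least 1 library. The model tested 33 rows. The other 2 had a status of too few reads in some library.

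Chloroplast rows held a small share of the summed FPKM, and roots held least. The root sums were 116 FPKM for wt and 79.1 for clf-28. Leaf sums, in the same order, were 1361 and 1415 FPKM, flower sums 1322 and 763, and silique sums 1568 and 1282. All later pairs of values give wt first and clf-28 second. Both root libraries lay below all 6 others. As a share of all FPKM, roots had a mean of 0.0144% and the other organs 0.187%, which is 13.0-fold higher. An exact two-sided permutation test gave p = 0.0357, the smallest p that 28 arrangements allow. Without the rRNA rows the means were 0.00560% and 0.0614% (exact permutation p = 0.0357). In these bulk samples, fewer green cells and less plastid RNA per cell cannot be told apart. The 166 mitochondrial rows moved the other way, with a mean share of 0.0621% in roots and 0.0309% in the other organs (exact permutation p = 0.0357).

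**Figure D1:**
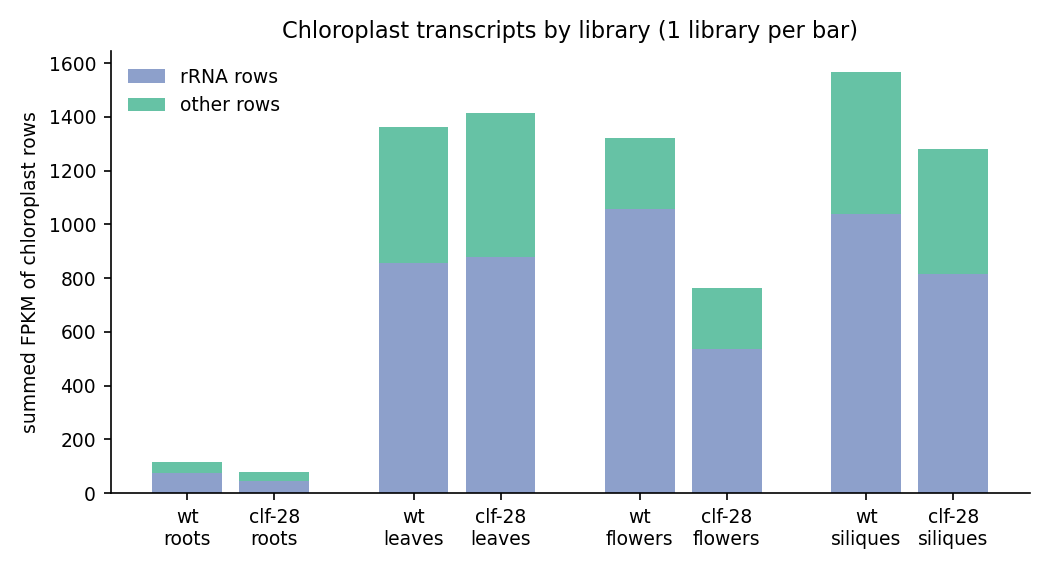
Summed FPKM of the 70 chloroplast rows in each library (1 library per bar), split into rRNA rows and other rows, with both repeat copies counted. The root bars stand at 116 and 79.1 FPKM, and the clf-28 flower bar at 763 FPKM is the lowest of the other organs.

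The genome-wide model compared roots with the mean of the other organs. Only 14 rows reached 1 FPKM in each root library, against 31 to 34 in the other libraries, so many rows entered the test through the organs where they are high. The count over tested rows is therefore given without weight: 30 of 33 were lower in roots and 0 higher by limma at an adjusted p under 0.05, and 24 to 32 were lower with 1 library left out. Over all genes tested, 26.5% were called lower and 30.0% higher. Over all 45 rows above 0 in some library, 36 had both roots below every other library, against 14.9% of all genes above 0.

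Photosystem II is the complex that oxidises water, and 3 of its loci had a row matched by position. psbA encodes the D1 protein of the reaction centre (plastid chromosome, positions 383 to 1444). Its root values were 2.18 and 1.12 FPKM. Leaves gave 50.7 and 85.7 FPKM, flowers 32.4 and 16.7, and siliques 48.1 and 67.4. The roots stood below all other libraries, and clf-28 was the higher genotype in leaves and siliques and the lower one in roots and flowers. The log2 difference between roots and the other organs was -4.13 (SE 0.37, adjusted p = 0.000908 in limma), the lowest of the tested rows.

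psbD/psbC encodes the D2 protein and the CP43 antenna protein (positions 32711 to 35141). Roots gave 1.56 and 1.14 FPKM, leaves 18.5 and 19.6, flowers 16.7 and 10.5, and siliques 30.7 and 34.5. Siliques lay above every other library for both genotypes. The log2 difference between siliques and flowers was 1.23 (SE 0.23, adjusted p = 0.0215 in limma).

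psbZ, a small subunit of the photosystem II antenna region, had 0.56 and 0.39 FPKM in the roots, with leaves at 3.63 and 3.02, flowers at 4.34 and 3.03 and siliques at 7.38 and 7.25. rpl32, a protein of the large ribosomal subunit, had 1.66 and 1.60 FPKM in the roots, with leaves at 46.8 and 46.5, flowers at 12.6 and 12.9 and siliques at 24.3 and 18.1. Of the tested rows these had the highest and the lowest difference between the reproductive organs and leaves. They are shown so that their base composition can be compared, with the longest runs of A in capitals. psbZ lies at chrC:35751-35939 and rpl32 at chrC:113449-113607, both on the plus strand of RefSeq build TAIR10.1, written 5′ to 3′.
psbZ: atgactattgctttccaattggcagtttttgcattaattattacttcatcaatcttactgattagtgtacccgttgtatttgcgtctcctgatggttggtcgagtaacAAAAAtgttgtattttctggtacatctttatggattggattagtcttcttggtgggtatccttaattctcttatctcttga
rpl32: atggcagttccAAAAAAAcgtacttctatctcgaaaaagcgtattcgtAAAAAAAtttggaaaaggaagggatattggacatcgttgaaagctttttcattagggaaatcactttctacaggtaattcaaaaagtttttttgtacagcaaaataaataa
The psbZ gene has 189 bases with 21.2% A and a longest run of 5. The rpl32 gene has 159 bases with 39.6% A and 2 runs of 7. Over 14 genes with a sequence, the longest run and the mean FPKM had a Spearman rho of -0.07, and over the 10 without rRNA of -0.26, given as a description across genes that share libraries and neighbourhood.

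The reproductive organs were compared with leaves. Of 33 tested rows, 1 was higher and 9 were lower by limma, against 34.3% higher and 10.6% lower over all genes. These counts describe tested rows and not all 70. The median difference was -0.32 for the chloroplast rows and 0.33 for all genes, and the first was 0.05 without the clf-28 leaves. psbZ was the row called higher, with a log2 difference of 0.53 (SE 0.15, adjusted p = 0.0390 in limma). That call was lost under quantile scaling, where its difference was -0.04 and the counts became 0 higher and 17 lower. It was also lost with a pseudocount of 0.1, with no filter, with scaling to chromosomes 1 to 5, and on leaving out any 1 of the 6 libraries other than siliques. Under quantile scaling the median over all genes was -0.06, with 4210 genes higher and 4928 lower in place of 8264 and 2559. The count of 9 lower rows was 1 without either leaf library, 4 without the wt flowers, and 5 without the clf-28 flowers or either root library.

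Ribosomal protein genes were among the rows lower in the reproductive organs. rpl32 had a log2 difference of -1.45 (SE 0.14, adjusted p = 0.0027 in limma), the largest fall. rpl2, a protein of the large subunit in the inverted repeat (positions 152806 to 154312), had leaf values of 8.83 and 7.27 FPKM, flower values of 4.30 and 3.68 and silique values of 5.21 and 3.26. The leaf libraries lay above all 4 reproductive libraries, and the difference was -0.83 (SE 0.15, adjusted p = 0.0115 in limma). rps7, a protein of the small subunit whose repeat copies count as 2 of the 9 lower rows, had leaf values of 3.41 and 3.82 FPKM, flower values of 1.81 and 1.80 and silique values of 2.69 and 2.83. Its difference was -0.51 (SE 0.13, adjusted p = 0.0324 in limma). rps12 and rpl23 had differences of -0.38 and -0.35 and did not pass. The other rows called lower were merged rows of 2 codes from ATCG00200, 3 from ATCG00450, 12 from ATCG00120, 17 from ATCG00510 and 22 from ATCG00065. Their log2 differences ran from -0.80 to -0.52. psbA had -0.84 and did not pass (adjusted p = 0.142 in limma).

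**Figure D2:**
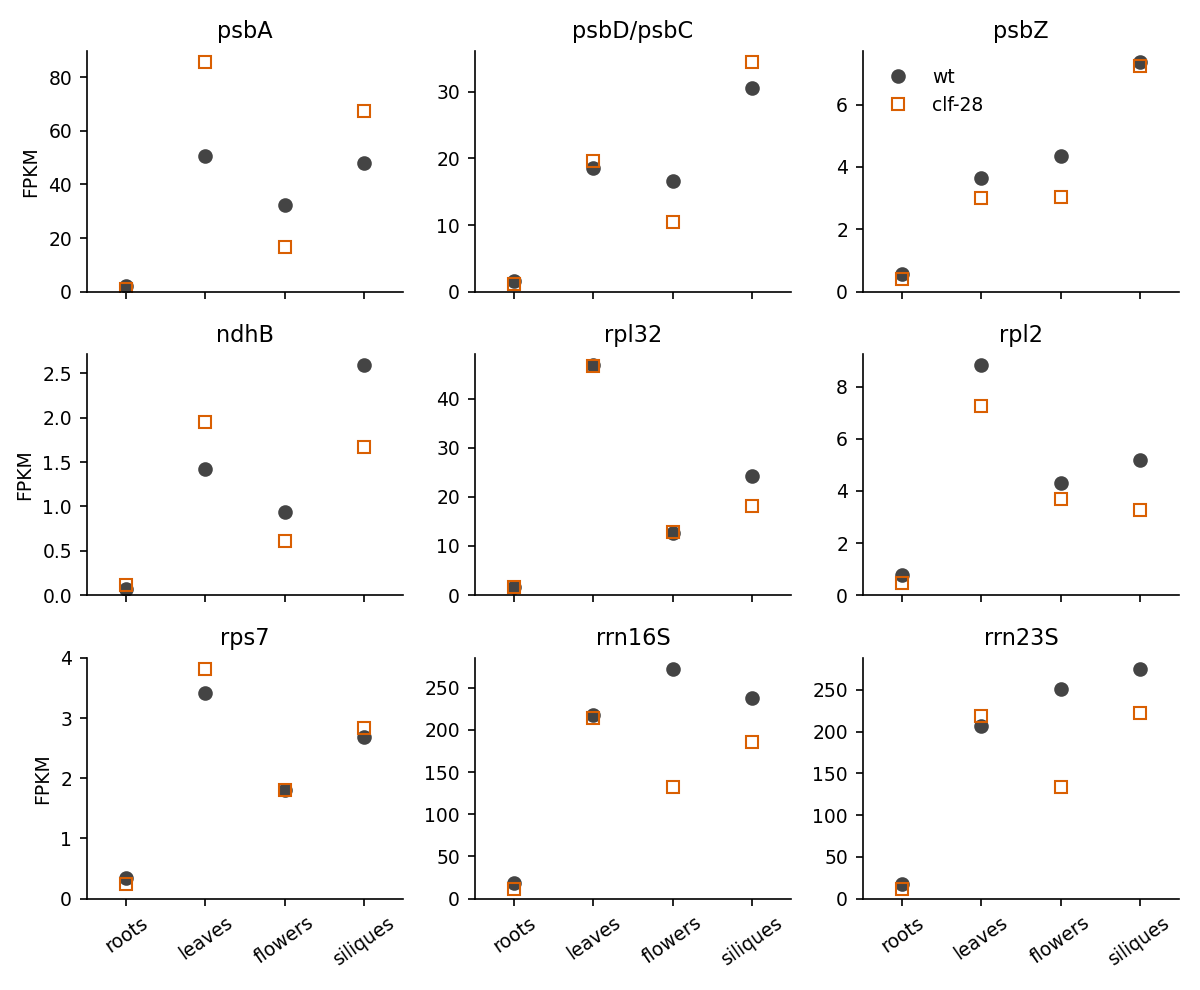
FPKM of 9 chloroplast genes by organ, with wt as filled circles and clf-28 as open squares (1 library per point, each panel with its own scale from 0). The leaf points of rpl32, at 46.8 and 46.5 FPKM, stand above its reproductive organs, and psbZ is highest in siliques, at 7.38 and 7.25 FPKM.

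Siliques were then compared with flowers. Of 33 tested rows, 11 were higher and 0 lower by limma, against 6.16% higher and 16.5% lower over all genes. The median was 0.63 for chloroplast rows and -0.18 for all genes, which was -0.01 under quantile scaling, with 1697 genes higher and 2571 lower in place of 1483 and 3979. Both silique libraries lay above both flower libraries in 21 of the 33 rows, against 18.3% of all tested genes. The largest difference was 1.86 (SE 0.22, adjusted p = 0.0062 in limma) for the row of 9 codes from ATCG01050, in the interval with ndhD, psaC and ndhE. That row was at 5.37 and 3.23 FPKM in flowers and 18.5 and 17.1 in siliques. The row of 17 codes from ATCG00510 followed with 1.60, the row of 10 codes from ATCG00320 with 1.49, and ATCG00070 with 1.26. ATCG00490, psbZ, ATCG00500 and rpl32 also passed, with 1.22, 0.84, 0.70 and 0.67, as did the rows of 12 and 22 codes with 0.88 and 0.70. ATCG00500 reached 1 FPKM only in the clf-28 siliques, at 1.17, with 0.70 in the wt siliques. It thus entered the test only through the organ where it was called higher, and its call carries no weight. psbA had 1.25 and did not pass (adjusted p = 0.111 in limma). The count of 11 was 1 without the clf-28 flower library, 3 without the wt flower library, 5 without either root library, and 6 without either leaf library or the wt siliques.

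The NDH complex carries electrons around photosystem I, and ndhB, one of its subunits in the inverted repeat (positions 94941 to 96795), had a row of its own. It had root values of 0.07 and 0.12 FPKM, leaf values of 1.42 and 1.95, flower values of 0.93 and 0.61 and silique values of 2.59 and 1.67. Its difference between siliques and flowers was 0.81 (SE 0.22, adjusted p = 0.0569 in limma) and did not pass.

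**Figure D3:**
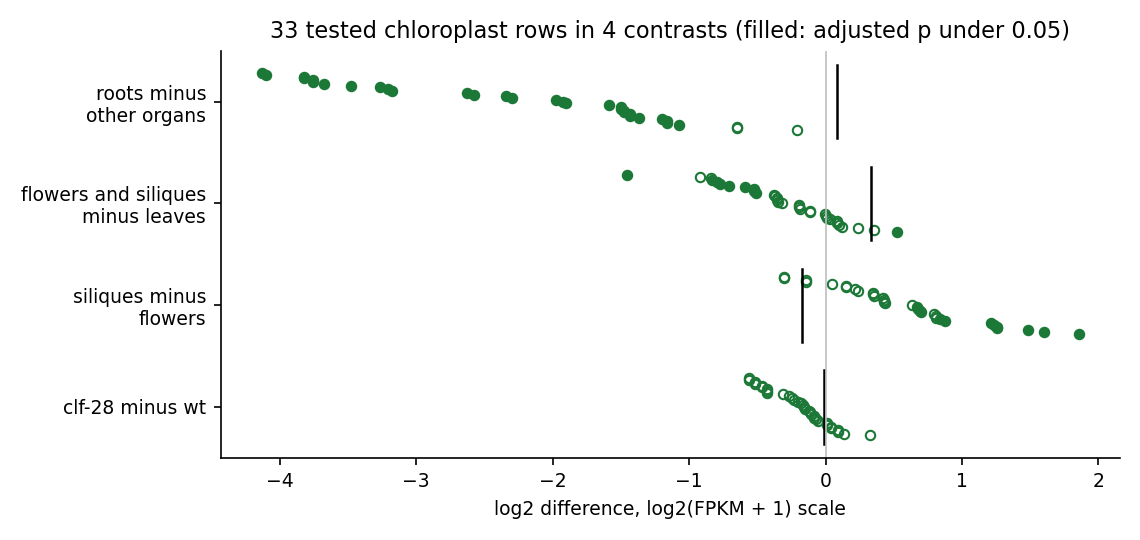
Log2 differences of the 33 tested chloroplast rows in 4 comparisons, on the log2(FPKM + 1) scale. Each point is a row, filled where the adjusted p was under 0.05 in limma, and the vertical bar is the median of all genes; the clf-28 comparison has no filled point.

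The ribosomal RNA rows, with both repeat copies counted, held most of the summed chloroplast FPKM. rrn16S (positions 101012 to 102502), the small subunit RNA, had root values of 18.0 and 11.1 FPKM per copy, leaf values of 218 and 215, flower values of 272 and 132 and silique values of 238 and 185. rrn23S (positions 104691 to 107500), the large subunit RNA, had root values of 17.5 and 11.4 FPKM, leaf values of 207 and 219, flower values of 251 and 134 and silique values of 275 and 222. In flowers the clf-28 library stood below the wt library for both. The rRNA rows made up 63.5% and 57.5% of chloroplast FPKM in the roots. Leaves gave 62.9% and 62.1%, flowers 80.1% and 70.4%, and siliques 66.2% and 63.7%. That share was lower in clf-28 in 4 of 4 organs (exact permutation p = 0.125, the smallest that 4 pairs allow). The share of all FPKM held by chloroplast rows had means of 0.158% and 0.129% (exact permutation p = 0.25). Without the rRNA rows these means were 0.0488% and 0.0460% (exact permutation p = 0.375). The rRNA sum includes ATCG00970, whose locus holds no RefSeq gene and whose values equal those of the rrn5S row. ATCG00970 was treated as the other copy of rrn5S. Both copies of each rRNA entered these sums. Whether a read shared by copies was split between them or counted at each is not known here. If it was counted at each, the rRNA shares above are too high.

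The repeat copies were checked, since reads from them cannot be assigned. Outside the tRNAs, 6 of 6 pairs with a named row for each copy had identical sequences, and the FPKM of copies differed by at most 2.67%. Copies are therefore reported as uncertain, and each pair is close to 1 measurement. RefSeq also holds another copy of rpl2, rpl23 and ycf2, in the interval from atpE to ycf2. Those copies have no named row, so these pairs were not compared, and reads of rpl2, rpl23 and ycf2 cannot be assigned either. Stretches at 98% identity or more over at least 50 bases were also looked for in the other genomes. Of 14 genes, 2 had such a nuclear stretch, rpl2 with 59 bases and ycf2 with 165, and rrn23S had 509 of its 2810 bases in the mitochondrial genome.

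In all 6 shared intervals both roots lay below every other library. The interval from atpE to ycf2 (positions 50858 to 94411), which holds rbcL, accD, petA, psbB and clpP among 45 genes, had root sums of 19.0 and 17.1 FPKM. Its leaf sums were 245 and 230 FPKM, its flower sums 122 and 112, and its silique sums 255 and 189. Flowers lay below leaves and siliques in both genotypes. The interval from psbK to psbM, with 19 genes including atpA and rpoB, had root sums of 9.64 and 6.44 FPKM, leaf sums of 72.1 and 69.7, flower sums of 29.3 and 32.4 and silique sums of 56.9 and 51.6. The interval from rps14 to ndhC, with psaA and psaB, had root sums of 2.90 and 1.60 FPKM, leaf sums of 27.96 and 40.3, flower sums of 23.3 and 17.8 and silique sums of 58.8 and 57.1. Nearly all of the rps14 to ndhC sum came from the row of 10 codes placed there, with 58.4 of 58.8 FPKM in wt siliques. The sums of all intervals mix genes of different length and are given only between libraries. The first and second of these intervals each include 1 row with a status of too few reads. Without it, a setting chosen after seeing the data, the psbK to psbM interval had root sums of 3.75 and 4.80 FPKM, so the order of the genotypes turned, leaf sums of 48.1 and 50.6, flower sums of 23.61 and 23.59 and silique sums of 48.4 and 44.4. The atpE to ycf2 interval then had root sums of 18.4 and 16.6 FPKM and leaf sums of 236 and 215. Roots stayed below every other library in all 6 intervals.

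The question whether clf-28 changes chloroplast transcripts was asked over the 4 organs. By limma, 0 of 33 chloroplast rows and 0 of 24078 genes passed (0.0% called in either direction). At an unadjusted p under 0.05, 1 of 33 chloroplast rows was higher and 3 were lower, against 1323 and 1516 of 24078 genes. The 3 lower rows were rpl2 and both copies of rrn16S, and those copies are close to 1 measurement. The smallest adjusted p of a chloroplast row was 0.414 (limma). The median difference was -0.16 for chloroplast rows and -0.01 for all genes. The lowest rows were rrn4.5S at -0.56 (SE 0.28) and rrn16S at -0.52 (SE 0.19). rpl2 was at -0.31 (SE 0.12), psbZ at -0.20 (SE 0.12) and psbA at -0.07 (SE 0.32).

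Within organs there is 1 library per genotype and no test, so rows are described by a 2-fold rule. In roots 14 rows were measured and 0 passed it in either direction, with a median log2 ratio of -0.48. Over all genes in roots, 5.55% were at least 2-fold higher and 1.22% lower. In leaves 0 of 32 passed, with a median of 0.09 (5.45% and 1.43% over all genes). In flowers 1 of 30 was higher and 4 were lower, with a median of -0.15 (1.51% and 1.04% over all genes). The higher row was ATCG00080, from 0.83 to 3.08 FPKM, and the lower rows were the copies of rrn16S, with a ratio of -1.04, and of rrn4.5S, with -1.15. In siliques 0 of 33 were higher and 2 were lower, with a median of -0.31 (11.4% and 8.0% over all genes). The lower rows were rrn5S and ATCG00970, both with 2.27 FPKM for wt and 0.15 for clf-28. These rows had equal values in every library, so they are close to 1 measurement, at a low level. The authors' intervals for wt and clf-28 overlapped in every measured row of every organ. That overlap cannot decide the question, because most lower bounds were 0. In wt roots the lower bound was 0 for 14 of 14 rows at 1 FPKM or more. It was 0 for 30 of 32 such rows in wt leaves, 30 of 31 in wt flowers and 32 of 34 in wt siliques. The clf-28 counts, in the same order, were 13 of 14, 32 of 34, 30 of 31 and 32 of 33.

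**Figure D4:**
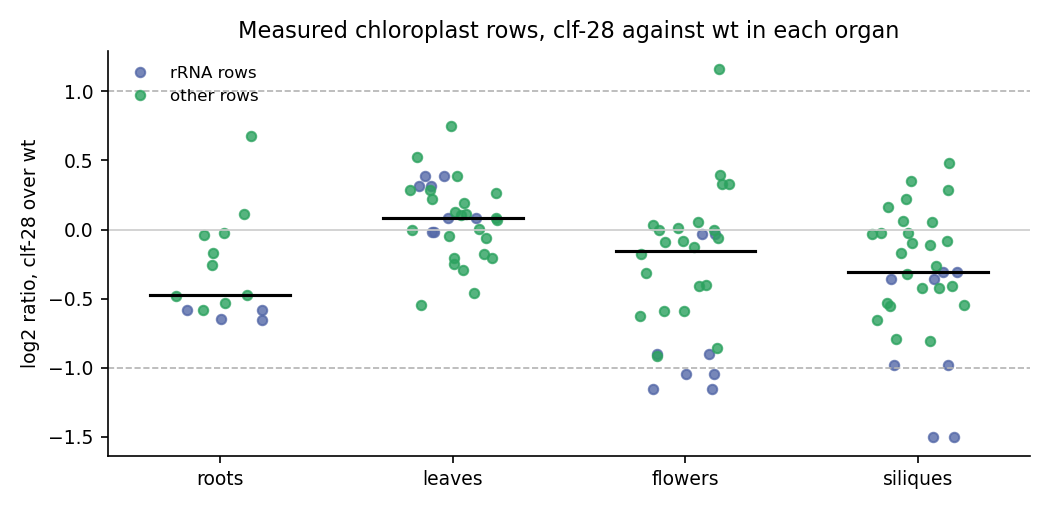
Log2 ratio of clf-28 over wt for each measured chloroplast row in each organ, with rRNA rows in blue and others in green (points are spread sideways at random). The black bar is the median, from -0.48 in roots to 0.09 in leaves, and dashed lines mark a 2-fold change.

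In flowers the sum of the rRNA rows went from 1058 to 537 FPKM, while the other rows went from 263 to 226. The log2 ratios were -0.98 and -0.22. In siliques the sums went from 1037 to 817 and from 530 to 465 FPKM, in leaves from 856 to 878 and from 505 to 537, and in roots from 73.7 to 45.5 and from 42.3 to 33.6.

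Nuclear genes for plastid transcription were set beside them from a list of 23, of which 18 had a row of their own. In roots 18 of 18 were lower than in the other organs by limma, against 26.5% of all genes, with a median of -2.31. GLK1, which promotes chloroplast development, had -4.08 and the sigma factor SIG4 had -3.94. Between the reproductive organs and leaves 9 were lower and 0 higher, against 10.6% and 34.3% of all genes, with a median of -0.78. GLK1 went from 107 FPKM in wt leaves to 19.2 in wt flowers and 13.3 in wt siliques. Between siliques and flowers 4 of 18 were lower and 0 higher, a share near that of all genes (16.5% lower and 6.16% higher), with a median of -0.54. The 4 were PTAC10, FLN1, FSD2 and FLN2, which associate with the plastid polymerase. For clf-28 over the 4 organs 0 of 18 passed in limma. At an unadjusted threshold of 0.05 the count was 0 higher and 2 lower, against 1323 and 1516 of 24078 genes. The 2 were GLK1, with a log2 difference of -0.74, and GLK2, with -0.63.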

How the data were processed

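RNA-seq libraries were aligned and quantified with TopHat and Cufflinks on TAIR10, per the submitters' processing notes, which give no versions. The authors deposited FPKM values with lower and upper bounds, and a status flag (unit other) that marks usable values; all were used as deposited. Counts were not used, so depth is unknown and no counting interval was computed. Starts were counted from 1. Members and gene lists were chosen with earlier results of these data known.

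Values were transformed as log2(FPKM + 1), so fold changes of low rows are understated. A model in limma 3.58.1 (R 4.3.3), with organ and genotype as terms, a mean-variance trend and 3 residual degrees of freedom, was run on 24078 genes whose status was usable in each of the 8 libraries and whose FPKM reached 1 in at least 1 of them. P values were adjusted by Benjamini-Hochberg over all genes in each contrast, with a threshold of 0.05. The model was tested on simulated data. Shares were compared by exact permutation tests. Within organs, rows with at least 1 FPKM in either library were described by a 2-fold rule. Named rows were the highest of each class, up to 6 of the largest differences per direction and contrast, merged rows over 1 FPKM, and rbcL, psbA, accD, clpP, rpoB, psaA and ndhF. Alternatives were other pseudocounts, filters, scalings and status rules, and leaving out each library. Python 3.11.15, numpy 2.4.6, pandas 2.3.3 and matplotlib 3.10.9 were used.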

Additional observations from a re-analysis of the deposited data

Results flagged for a closer look

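Chloroplast rows were looked at where clf-28 was higher than wt by at least 0.5 on the log2 scale in 1 organ and lower by at least 0.5 in another. The difference between organs was not tested, since each rests on 4 libraries with 1 per group. The psbA row was 0.75 in leaves and -0.92 in flowers, a difference of 1.66. ATCG00080 was 1.16 in flowers and -0.53 in siliques, a difference of 1.69. ATCG00130 was 0.67 in roots and -0.59 in flowers, a difference of 1.27. The row of 10 codes from ATCG00320 was 0.52 in leaves and -0.53 in roots, a difference of 1.06.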

How the results depend on the processing

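No pairing by replicate was possible because the labels give no replicate numbers. Organ was already a block for the clf-28 comparison, and the permutation tests of clf-28 shares took the 4 organs as pairs. The cause of each change below was not tested. For clf-28 over the 4 organs, 1 gene of the whole table passed with a pseudocount of 5, and several values near 0 changed sign. psbA became 0.034 and ATCG00080 -0.0068 with a pseudocount of 5, rps7 -0.049 and ATCG00070 -0.011 with a pseudocount of 0.1, and rps7 -0.056 and rps12 -0.026 under quantile scaling. With 1 library left out these ran from -0.34 to 0.21 for psbA, -0.21 to 0.028 for ndhB, -0.026 to 0.059 for rps7, -0.21 to 0.35 for ATCG00080 and -0.059 to 0.082 for rps12.

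For roots against the other organs, the median of chloroplast rows was -2.95 and -0.81 with pseudocounts of 0.1 and 5. It was -0.28 with no filter, -3.21 with a filter of 5 FPKM, where 19 rows were lower, and -2.14 with each repeat pair counted once, chosen after seeing the data. With 1 library left out it ran from -2.13 to -1.87, and the genes called from 7244 to 14909. The direction did not change under any of these settings.

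For flowers and siliques against leaves, the number of higher rows was 0 with a pseudocount of 0.1, with no filter, under quantile scaling and under scaling to chromosomes 1 to 5. Quantile scaling gave 17 lower rows and a median of -0.85. It also turned psbD/psbC to -0.16, psbZ to -0.039, ATCG00040 to -0.60 and rrn5S to -0.60. rrn5S was -0.036 with a pseudocount of 0.1 and rrn23S 0.0011 with a pseudocount of 5. With 1 library left out, 0 to 2 rows were higher, 1 to 10 lower and 2171 to 12177 genes called. The median then ran from -0.45 to 0.048, positive without the clf-28 leaves. The values ran from -0.036 to 0.28 for psbD/psbC, -0.44 to 0.051 for ndhB, -0.45 to 0.22 for rrn16S, -0.34 to 0.34 for rrn23S, -0.059 to 0.77 for ATCG00490, -0.10 to 0.30 for ATCG00040 and -0.48 to 0.65 for rrn5S.

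For siliques against flowers, the median was 0.71 and 0.30 with pseudocounts of 0.1 and 5, 0.10 with no filter, 0.80 with a filter of 5 FPKM, 0.70 under quantile scaling and 0.44 with all status values. rrn5S turned to 0.16 under quantile scaling. With 1 library left out, 1 to 9 rows were higher, 2089 to 6430 genes were called and the median ran from 0.47 to 0.64. The values ran from -0.11 to 0.20 for rpl2, -0.20 to 0.50 for rrn16S, -0.69 to 0.094 for rrn4.5S and -0.83 to 0.55 for rrn5S. Over rows named in these comparisons, 89 of 351 calls were lost with 1 library left out.

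Within roots, 1 row was at least 2-fold higher with a pseudocount of 0.1 and 1 lower with all status values. The median was -0.19 with a pseudocount of 5, 0.0 with no filter and -0.036 over single genes outside the repeat. Within leaves, 1 row was higher under quantile scaling. Within flowers, 0 rows were higher and 2 lower with a pseudocount of 5 or a filter of 5 FPKM, 2 were higher with all status values, 0 were lower outside the repeat, and 2 were lower with each pair counted once. The median was -0.61 with the filter of 5 FPKM, -0.32 under quantile scaling and -0.36 outside the repeat. Within siliques, 4 rows were lower with a pseudocount of 0.1 or quantile scaling, 0 with a pseudocount of 5, a filter of 5 FPKM or outside the repeat, and 1 with each pair counted once. The median was -0.017 with no filter. Depth is unknown, so the precision of low rows cannot be given beyond the authors' intervals.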

Other observations

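The locus at positions 112868 to 113210 of the plastid chromosome has no gene name in the table. It was under 1 FPKM in all 8 libraries and entered no test, and it was chosen after its values were seen. Its values, wt first, were 0.0 and 0.31 FPKM for roots, 0.045 and 0.84 for leaves, 0.044 and 0.56 for flowers, and 0.13 and 0.14 for siliques. It was 1 of 2 rows, of 45 above 0, that were higher in clf-28 in 4 of 4 organs, and 5 rows were lower in 4 of 4. Both copies of rrn16S are among the 5. The share over all genes was not computed, so these counts do not mark the locus as unusual. Rubisco small subunit genes of the nucleus stood beside the interval that holds rbcL. RBCS1B had leaf values of 1357 FPKM (wt) and 779 (clf-28), and silique values of 1466 and 376. RBCS3B had 4075 and 2934 FPKM in leaves, and 5053 and 1338 in siliques. Over the 4 organs the clf-28 differences of RBCS1B and RBCS3B did not pass (adjusted p = 0.414 and 0.415 in limma). RBCS1A was listed at 0 in both leaf libraries and in wt siliques but at 4903 FPKM in clf-28 siliques, and is not compared. The values of RBCS1B and RBCS3B therefore do not show a fall of all small subunit genes in clf-28.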
